A study of Mus musculus with 6 samples.

Results

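The 8 genes described here carry adrenergic and muscarinic signalling in heart muscle, together with a non-coding RNA that starts beside one of them. They are the receptor genes Adrb1, Adra1a, Adra1b and Chrm2, the G protein gene Gnas, the adenylyl cyclase genes Adcy5 and Adcy6, and the long non-coding RNA gene 9330158H04Rik. They were chosen by symbol, 8 of the 52550 mouse gene rows in the count files, and all 8 had enough reads to be tested. Of these, 7 were listed for their function and are called the functional genes below. 9330158H04Rik was listed because earlier work on the same libraries had noted it as higher in GR-cKO hearts, so its genotype difference is given as a description with no test. The hearts came from mice at postnatal day 7, in a control group of 3 libraries and a GR-cKO group of 3 libraries, described by the submitters as biological replicates. GR-cKO stands for a deletion of the glucocorticoid receptor gene, Nr3c1, in cardiomyocytes. The labels give neither the Cre line, the deleted exon, the strain, the sex of the animals nor the genotype of the controls. The tissue was whole heart, so in any difference below fewer cells of a type and less RNA per cell cannot be told apart.

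Noradrenaline and adrenaline speed and strengthen the heartbeat mainly through the beta1-adrenergic receptor. That receptor acts through the stimulatory G protein alpha subunit to switch on adenylyl cyclase, which makes cyclic AMP and so activates protein kinase A. The alpha1-adrenergic receptors use Gq proteins and phospholipase C, a route linked to growth of heart muscle cells. Acetylcholine from the vagus acts on the M2 muscarinic receptor, which works through inhibitory G proteins to restrain the cyclases and to open a potassium channel that slows the pacemaker. Glucocorticoids rise around birth and act through their receptor, a ligand-activated transcription factor.

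Chrm2, which encodes the M2 receptor, and 9330158H04Rik lie head to head on mouse chromosome 6 and their first exons interlock. Chrm2 (ENSMUSG00000045613) spans 36388084 to 36528414 on the plus strand and 9330158H04Rik (ENSMUSG00000073154) spans 36209620 to 36390191 on the minus strand (GRCm38). The RefSeq starts of both genes are 150 bases apart. In the GENCODE M21 annotation, with 2 transcripts of Chrm2 and 9 of the non-coding RNA, the gene bodies share 2108 bases and the exons share 142 bases in 2 blocks. Both blocks, 36388084 to 36388092 and 36388156 to 36388288, lie in exon 1 of Chrm2, which runs from 36388084 to 36388366. The last exons, where reads of a 3′ library are expected to start, share no base. The last exon of the coding Chrm2 transcript begins at 36523170, which is 132978 bases beyond the nearest base of the non-coding RNA.

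The start regions of the pair are printed because they show how closely the 2 promoters lie. Each window holds 250 bases before and 50 bases after the RefSeq start (GRCm38.p6), read 5′ to 3′ on the gene's own strand, and capitals mark bases that lie in exon 1 of Chrm2 on either strand. The Chrm2 window is chr6:36387834-36388133 on the plus strand and the 9330158H04Rik window is chr6:36388185-36388484 on the minus strand.
Chrm2: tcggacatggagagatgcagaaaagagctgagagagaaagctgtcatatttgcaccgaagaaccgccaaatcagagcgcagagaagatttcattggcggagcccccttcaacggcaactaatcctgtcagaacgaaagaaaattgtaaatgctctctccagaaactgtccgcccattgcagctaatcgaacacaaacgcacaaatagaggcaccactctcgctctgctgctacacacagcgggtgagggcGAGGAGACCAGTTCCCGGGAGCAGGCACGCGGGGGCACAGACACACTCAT
9330158H04Rik: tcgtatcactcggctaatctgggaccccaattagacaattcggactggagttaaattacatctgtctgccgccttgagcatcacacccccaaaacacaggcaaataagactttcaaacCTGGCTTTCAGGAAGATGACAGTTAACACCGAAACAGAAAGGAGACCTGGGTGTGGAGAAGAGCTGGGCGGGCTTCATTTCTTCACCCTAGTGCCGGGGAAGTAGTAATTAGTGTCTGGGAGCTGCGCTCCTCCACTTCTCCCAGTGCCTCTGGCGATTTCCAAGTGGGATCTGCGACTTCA
In the 9330158H04Rik window 182 of 300 bases lie in exon 1 of Chrm2, and 50 do in the Chrm2 window. Neither window held the glucocorticoid receptor hexamer AGAACA on either strand, which 19.0% of all 32851 RefSeq windows of this length hold. Neither held the palindrome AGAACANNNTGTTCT, made of that hexamer and its reverse complement, found in 3 of all windows. The cyclic AMP element TGACGTCA was in neither, and 1.79% of all windows hold it. Across the 10 windows of the 6 genes of the set that have one, only Gnas had the hexamer, in 2 overlapping windows that hold the same match. A letter match is no binding site, and a missing match says nothing of binding elsewhere.

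**Figure D1:**
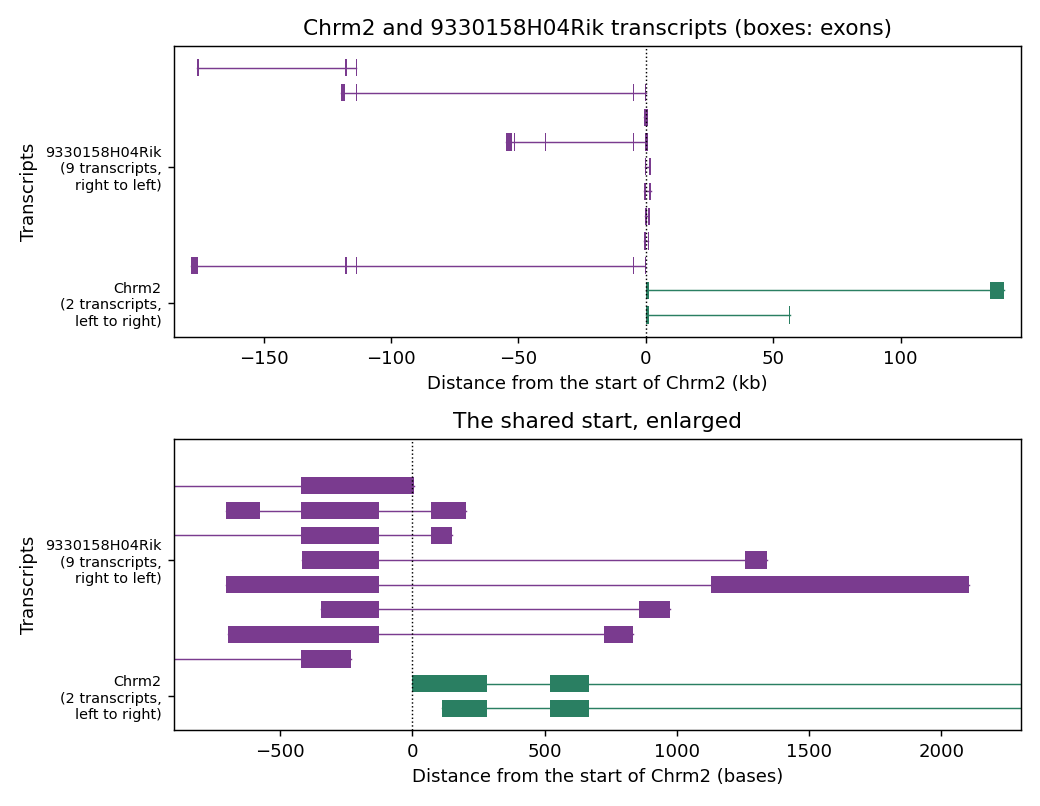
Annotated transcripts of Chrm2 (green) and 9330158H04Rik (purple) by distance from the start of Chrm2, in kb above and in bases below. Boxes are exons, and short exons are drawn wider than scale in the upper panel. The exons interlock only around the start of Chrm2, and the last exons of the 2 genes lie apart.

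The 6 libraries held 18135540 to 22999192 reads each, in whole-number counts per gene. Nr3c1, the deleted gene, stood at 99.7 to 131 CPM (reads scaled to 1000000 per library) in the control libraries and at 49.2 to 57.6 CPM in the GR-cKO libraries (edgeR adjusted p = 0.00101), in the direction of the labels. GR-cKO replicate 3 stood apart, with a chi-square per degree of freedom of 35.1 to 55.7 against each other library, where the other pairs gave 10.1 to 27.1. All 8 cardiomyocyte markers were present, with a summed level of 38277 to 40987 CPM in the controls and 38175 to 47032 CPM in the GR-cKO libraries. Over all 14860 tested genes the edgeR test called 1 gene, Nr3c1, or 0.00673% of them.

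9330158H04Rik was higher in every GR-cKO library than in any control library. Groups are apart in this way, in either direction, for 9.97% of all tested genes, and since the gene was picked on this contrast nothing is read from it. Its level was 14.6, 13.0 and 16.5 CPM in control replicates 1 to 3, from 333, 253 and 315 reads. In GR-cKO replicates 1 to 3 it was 22.7, 24.0 and 35.7 CPM, from 406, 509 and 664 reads. The controls lay close together and the GR-cKO libraries spread upward, with the highest level in replicate 3, the library that stood apart. The group levels were 14.7 ± 1.76 and 27.5 ± 7.18 CPM (SD, n = 3 each), a fold of 1.87. The log2 fold change was 0.90. It was 0.67 without GR-cKO replicate 3 and 1.03 without GR-cKO replicate 1, the lowest and highest values with any library left out.

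Chrm2, on the other strand, showed no such separation of the groups. Its level was 49.8, 46.8 and 56.4 CPM in control replicates 1 to 3, against 52.3, 39.8 and 49.9 CPM in GR-cKO replicates 1 to 3. The groups overlapped, and the lowest value was that of GR-cKO replicate 2. The log2 fold change was -0.11 (95% interval -0.39 to 0.18, SE 0.136, edgeR adjusted p = 0.998), and it was 0.0018 without GR-cKO replicate 2. That interval leaves room for a fold between 0.762 and 1.13.

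The pair can also be read as a share within each library, which no scaling between libraries affects. A 3′ library is meant to give about 1 read per transcript whatever its length, so reads were not divided by length here or in other comparisons between genes. Whether the counts hold all 3′ ends in use of each gene was not tested, which limits these comparisons. 9330158H04Rik gave 22.6, 21.8 and 22.7% of the reads of the pair in control replicates 1 to 3, against 30.2, 37.6 and 41.7% in GR-cKO replicates 1 to 3. Each control value lay inside the counting intervals of the other controls, with exact Clopper-Pearson 95% bounds from 19.4 to 25.0% over the 3 libraries. The means were 22.4 ± 0.517% and 36.5 ± 5.82% (SD, n = 3 each), a difference of 14.2 percentage points that was 11.6 without GR-cKO replicate 3. It rests on the contrast for which 9330158H04Rik was picked and was not tested. These intervals cover counting error only.

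**Figure D2:**
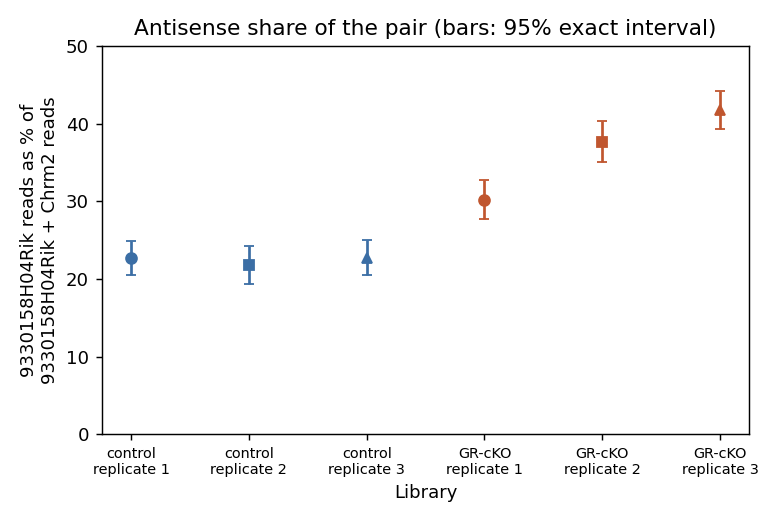
Share of 9330158H04Rik in the reads of 9330158H04Rik and Chrm2 together, in percent, for each library, with exact 95% counting intervals as bars. The control libraries sit between 21.8 and 22.7%, and the GR-cKO libraries between 30.2 and 41.7%.

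The genes around the pair gave no call. Of 21 other annotated genes within 1000000 bases of either gene, 5 were tested, and the groups overlapped for each. Over all tested genes groups were apart for 9.97% and 0.00673% were called, so these 5 are no result about the locus. The closest tested neighbour was Ptn, the gene of the growth factor pleiotrophin, at 67.7 ± 2.67 CPM in controls against 60.2 ± 5.21 CPM in the GR-cKO group (SD, 3 libraries each, edgeR adjusted p = 0.998). The non-coding RNA 1810058I24Rik, named after its value was seen, had the largest difference of the 5 and was at 179.7 ± 6.25 and 216 ± 49.3 CPM (log2 fold change 0.27, SE 0.138). Between 9330158H04Rik and Chrm2 Pearson's r of log2 CPM over the 6 libraries was -0.14, given as a description. The 3 genes whose levels ran most like those of 9330158H04Rik, among 10230 others of at least 5 CPM, were Klc4, Ptk7 and Smarcc1 (r of 0.995, 0.994 and 0.986 over the same libraries). Those most like Chrm2 were Rin2, Retreg3 and Slc35a3 (r of 0.987, 0.984 and 0.976). These values rank genes over 6 points and carry no test. Klc4, Ptk7 and Smarcc1 were each higher in every GR-cKO library than in any control library. Their likeness to 9330158H04Rik thus includes the contrast on which that gene was picked.

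M2 receptors and their potassium channel are richer in atria than in ventricles, so the atrial content of the samples is given beside Chrm2. All 9 atrial markers were tested and had a negative log2 fold change, with a median of -0.14, and the groups overlapped for each of them. Their summed level was 2742, 4576 and 3371 CPM in control replicates 1 to 3, against 2533, 3932 and 2954 CPM in GR-cKO replicates 1 to 3. GR-cKO replicate 2, the lowest in Chrm2, was the highest GR-cKO library in atrial markers. Markers of the sinoatrial node summed to 40.9 to 57.8 CPM in the controls and 41.04 to 59.7 CPM in the GR-cKO libraries. The part of atrial tissue in the Chrm2 values was not tested.

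**Figure D3:**
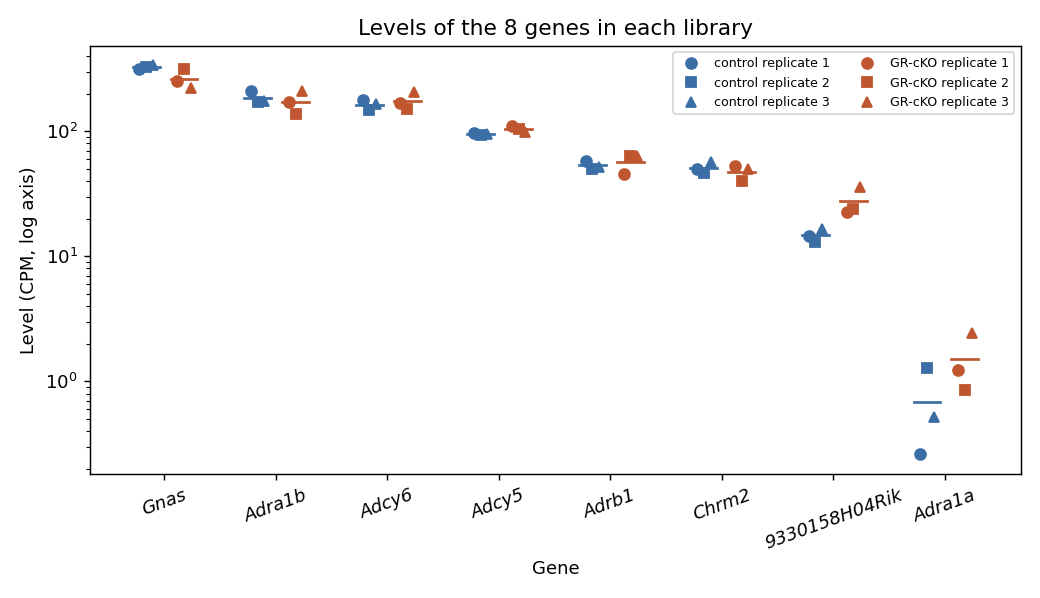
Level of each of the 8 genes in each library, in CPM on a log axis, with control in blue, GR-cKO in orange, a symbol per replicate and bars at the group means. Groups do not overlap for 9330158H04Rik, which was picked on this contrast, and for Adcy5, 1 of the 7 functional genes. Over all tested genes this holds for 9.97%.

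Adrb1, which encodes the beta1-adrenergic receptor, differed by less than the spread between GR-cKO libraries. It is on chromosome 19 from 56722199 to 56733113, plus strand (GRCm38, as for all positions here). Its level was 58.0, 49.99 and 51.8 CPM in control replicates 1 to 3, against 45.1, 63.2 and 63.1 CPM in GR-cKO replicates 1 to 3. GR-cKO replicate 1 was the lowest of all libraries and the other GR-cKO libraries were the highest. The log2 fold change was 0.10 (95% interval -0.19 to 0.40, SE 0.140, edgeR adjusted p = 0.998), and it was 0.25 without GR-cKO replicate 1 and 0.02 without GR-cKO replicate 2. Adrb3, which encodes the beta3 receptor of fat, gave 0 to 6 reads a library, too few for a test.

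Of the alpha1 receptor genes of the set, Adra1b gave nearly all reads and Adra1a had few. Adra1b, the gene of the alpha1B receptor, lies on the minus strand of chromosome 11 (43774606 to 43901210). It was at 211, 171 and 173 CPM in control replicates 1 to 3. It was at 171, 137 and 209 CPM in GR-cKO replicates 1 to 3. The groups overlapped, with GR-cKO replicate 3 inside the control range and GR-cKO replicate 2 below every control library. The log2 fold change was -0.10 (95% interval -0.41 to 0.20, SE 0.143, edgeR adjusted p = 0.998). The value was -0.27 with GR-cKO replicate 3 left out and 0.035 with GR-cKO replicate 2 left out, so 1 library decided its sign.

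Adra1a, the gene of the alpha1A receptor (chromosome 14, 66635251 to 66771168, plus strand), had 6, 25 and 10 reads in control replicates 1 to 3. It had 22, 18 and 45 reads in GR-cKO replicates 1 to 3. Control replicate 2 lay among the GR-cKO libraries, and GR-cKO replicate 3 was the highest. The levels were 0.690 ± 0.531 and 1.499 ± 0.820 CPM (SD, 3 libraries each), and the log2 fold change was 1.12 (95% interval -0.30 to 2.54, SE 0.677, edgeR adjusted p = 0.998). It was 0.59 with GR-cKO replicate 3 left out and 1.93 with control replicate 2 left out. At least 10 reads were present in 2 control and 3 GR-cKO libraries. The 7 markers of fat summed to 1292, 1619 and 1156 CPM in control replicates 1 to 3. In GR-cKO replicates 1 to 3 they summed to 1157, 1347 and 1423 CPM. Ucp1, of that list, was at 89.3 CPM in control replicate 2 and at 0 to 18.8 CPM elsewhere. Cidea, also listed, was highest in GR-cKO replicate 3 at 167 CPM. The part of attached fat in the Adra1a values was not tested. Adra1a gave 0.390 ± 0.319% of the reads of both alpha1 genes in controls against 0.825 ± 0.280% in the GR-cKO group (SD, 3 libraries each, exact permutation p = 0.3, 2-sided, adjusted p = 0.6 over 3 shares tested). For a single library the share ran from 0.124% (exact 95% interval 0.0455 to 0.270%) in control replicate 1 to 1.14% (0.835 to 1.53%) in GR-cKO replicate 3.

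Gnas, which encodes the stimulatory G protein alpha subunit, had the largest downward difference among the functional genes. It was at 312, 324 and 336 CPM in control replicates 1 to 3, against 252, 314 and 222 CPM in GR-cKO replicates 1 to 3. The controls varied by 3.62% of their mean (SD) and the GR-cKO libraries by 17.9%. GR-cKO replicate 2 lay inside the control range and the other GR-cKO libraries below it. The log2 fold change was -0.30 (95% interval -0.57 to -0.04, SE 0.126), and it did not pass over all genes (edgeR adjusted p = 0.998). It was -0.46 with GR-cKO replicate 2 left out and -0.20 with GR-cKO replicate 3 left out. With scaling by the spike-ins it was -0.23. No functional gene, Gnas included, had an unadjusted edgeR p under 0.05 with that scaling. The same held without control replicate 3 and without GR-cKO replicate 1. Gnas is an imprinted locus on chromosome 2 (174284320 to 174346744, plus strand) with 24 annotated transcripts, which 3′ reads cannot tell apart where they share a last exon. On the opposite strand, Gm20721 covers 761 bases of its last exons and had 0 reads in each library, and Nespas, an antisense transcript of the imprinted part, had 1 to 26.

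Adcy5 and Adcy6, which encode the main cyclases of heart muscle, differed little between the groups. Adcy5 lies on the plus strand of chromosome 16 (35154877 to 35305738). It was at 96.4, 92.6 and 94.5 CPM in control replicates 1 to 3, against 109, 103.9 and 98.6 CPM in GR-cKO replicates 1 to 3. Every GR-cKO library lay above every control library, but by a small step. The log2 fold change was 0.14 (95% interval -0.09 to 0.37, SE 0.109, edgeR adjusted p = 0.998), between 0.10 and 0.17 with any 1 library left out. Its upper bound corresponds to a fold of 1.29.

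Adcy6 (chromosome 15, 98589973 to 98610076, minus strand) was the more abundant of the 2. It was at 179, 146 and 164 CPM in control replicates 1 to 3, against 167, 149.5 and 205 CPM in GR-cKO replicates 1 to 3. The groups overlapped, and GR-cKO replicate 3 was the highest. The log2 fold change was 0.09 (95% interval -0.18 to 0.36, SE 0.130, edgeR adjusted p = 0.998), and -0.042 without GR-cKO replicate 3. Gm29331 covers 605 bases of its last exons on the opposite strand and had 0 reads in each library.

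The balance of both cyclases differed by less than the spread between libraries. Adcy5 gave 35.0, 38.7 and 36.6% of the reads of both genes in control replicates 1 to 3, against 39.5, 41.0 and 32.5% in GR-cKO replicates 1 to 3. GR-cKO replicate 3 was the lowest of all libraries and the other GR-cKO libraries were the highest. The means were 36.8 ± 1.88% and 37.7 ± 4.54% (SD, n = 3 each, exact permutation p = 0.8, 2-sided, adjusted p = 0.8 over the 3 shares). With 3 libraries against 3 this test cannot give a p below 0.1. The difference was 0.905 percentage points, and it was 3.49 points without GR-cKO replicate 3 and -0.761 points without GR-cKO replicate 2.

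**Figure D4:**
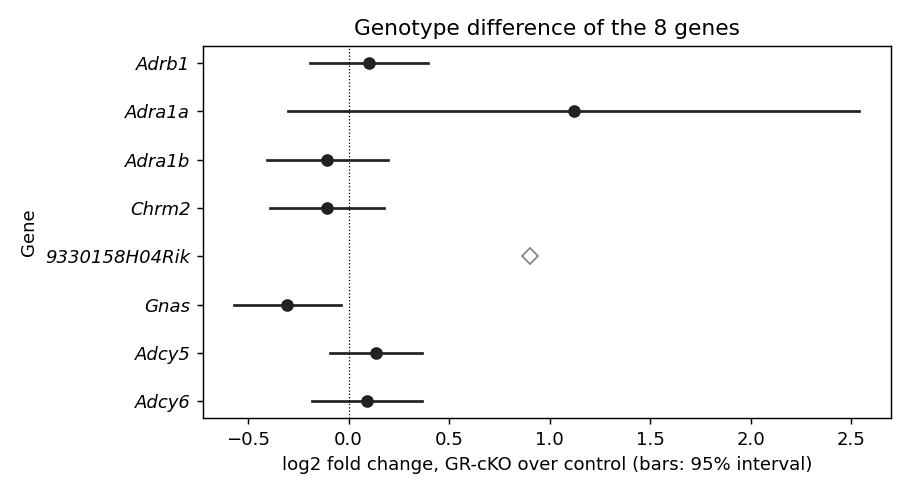
Log2 fold change of GR-cKO over control for each of the 8 genes, with 95% intervals as bars. The open grey symbol is 9330158H04Rik, which was picked for this difference and has no bar, and the intervals of all functional genes but Gnas include 0.

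Of the 7 functional genes none passed the edgeR test over all genes, and DESeq2, limma voom and the edgeR fit without GR-cKO replicate 3 called none of them either. Their log2 fold changes were positive for 4 and negative for 3, with a median of 0.09, against a median of 0.01 over all tested genes. At an unadjusted p under 0.05 there was 1 of 7, Gnas, against 4.2% of all tested genes, and groups did not overlap for 1 of 7, Adcy5, against 9.97%. Both are the counts of a single gene and are not results about the set. The order of the mean levels was Gnas, Adra1b, Adcy6, Adcy5, Adrb1, Chrm2, 9330158H04Rik and Adra1a. Neighbours in that order had separate ranges over the 6 libraries except Adra1b and Adcy6, in this order in 5 libraries, and Adrb1 and Chrm2, in this order in 4.

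The rest of the pathway was read from a list of 97 genes in 11 roles, of which 82 were tested. No listed gene passed in either direction with edgeR, with DESeq2, with limma voom or without GR-cKO replicate 3, and 44 had positive and 38 negative log2 fold changes with a median of 0.01. At an unadjusted p under 0.05 there were 4 genes, 2 higher and 2 lower, or 4.88% of those tested, close to the 4.2% of all genes. Groups did not overlap for 9 genes, 3 higher and 6 lower, or 11.0%, against 9.97% of all genes. In the roles below, higher and lower give the sign of the log2 fold change, which was positive for 51.3% of all tested genes, and no gene was called.

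Among other receptors few had reads. Of 6 further adrenergic receptor genes 3 were tested, with Adra2b, an alpha2 receptor, the most abundant at 1.39 ± 0.664 CPM in controls against 1.01 ± 0.207 CPM in the GR-cKO group (SD, 3 libraries each). Of 4 further muscarinic receptor genes only Chrm3, a receptor coupled to Gq, was tested, at 4.19 ± 0.956 and 4.97 ± 2.66 CPM. Its mean was below that of Chrm2 in both groups.

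All 10 further G protein subunit genes were tested, with 5 higher and 5 lower. Gnb2, a beta subunit, was the most abundant at 753 ± 85.9 CPM in controls against 788 ± 31.7 CPM in the GR-cKO group (SD, 3 libraries each). Gng5, a gamma subunit, had the smallest p, at 24.6 ± 3.22 and 17.4 ± 4.75 CPM (log2 fold change -0.49, SE 0.191, edgeR adjusted p = 0.998). Of 8 further cyclase genes 6 were tested, 3 higher and 3 lower. Adcy9 was the most abundant of them at 24.9 ± 2.81 and 28.9 ± 5.09 CPM, below the levels of Adcy5 and Adcy6. Adcy1, a calcium-stimulated cyclase, had the smallest p at 3.53 ± 0.371 and 1.97 ± 0.843 CPM (log2 fold change -0.84, SE 0.402, edgeR adjusted p = 0.998).

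Phosphodiesterases, which break down cyclic nucleotides, had 2 of 10 tested genes higher and 8 lower, with a median log2 fold change of -0.13. Pde4a was the most abundant at 72.4 ± 3.14 CPM in controls against 74.7 ± 3.59 CPM in the GR-cKO group (SD, 3 libraries each). Pde4d, a partner of beta receptor complexes, was at 14.3 ± 1.91 and 17.97 ± 2.59 CPM. Of 15 genes of protein kinase A, its anchors and Epac, 9 were higher and 6 lower. Prkaca, the main catalytic subunit, was at 1681 ± 251 and 1889.7 ± 175 CPM, far above the receptors. Rapgef4, which encodes the cyclic AMP sensor Epac2, was at 3.77 ± 0.536 and 6.04 ± 1.88 CPM (log2 fold change 0.68, SE 0.302, edgeR adjusted p = 0.998).

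Genes that switch receptors off had 7 of 11 higher and 4 lower. The receptor kinase gene Grk5 was at 33.4 ± 5.63 CPM in controls against 27.9 ± 2.01 CPM in the GR-cKO group (SD, 3 libraries each). Rgs5, a G protein brake also abundant in pericytes, was at 531 ± 40.6 and 533 ± 93.1 CPM. The 7 markers of smooth muscle and pericytes include Rgs5. They summed to 1566 to 1819 CPM in the controls and 1873 to 2086 CPM in the GR-cKO libraries. Of the 7, 4 were higher, and the list median was a log2 fold change of 0.0033. Groups were apart for 1 of 7, Acta2, the most abundant of them, against 9.97% of all tested genes. Acta2 was at 926, 777 and 720 CPM in control replicates 1 to 3. It was at 1096, 1125 and 1090 CPM in GR-cKO replicates 1 to 3. The groups overlapped for each other marker, so the sums are no result about the list. The part of these cell types in the values of this role was not tested. The alpha1 route of phospholipase C and protein kinase C had 4 of 8 higher and 4 lower. Plcb1 was at 14.8 ± 1.33 and 10.6 ± 4.16 CPM, and the calcium release channel gene Itpr2 was at 87.6 ± 4.97 and 93.0 ± 9.83 CPM. The muscarinic potassium channel is built from the products of Kcnj3 and Kcnj5. Kcnj3 was at 32.8 ± 5.53 and 27.6 ± 4.66 CPM, and Kcnj5 was at 52.7 ± 1.86 and 57.8 ± 9.86 CPM.

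Substrates of protein kinase A in heart muscle had 7 of 8 genes higher and 1 lower, with a median log2 fold change of 0.12. Tnni3, cardiac troponin I, was at 6052 ± 67.5 CPM in controls against 6685 ± 1087 CPM in the GR-cKO group (SD, 3 libraries each). Mybpc3, cardiac myosin binding protein C, was at 3714 ± 625 and 4342 ± 533 CPM. The summed cardiomyocyte markers, which share Pln, Ryr2 and Tnni3 with this role, were highest in GR-cKO replicate 3 at 47032 CPM, and their part in these values was not tested.

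Genes of transmitter synthesis, uptake and breakdown had 8 of 14 tested, 3 higher and 5 lower. Ddc, which encodes aromatic amino acid decarboxylase, was both the most abundant and that of smallest p. It was at 80.9 ± 4.44 CPM in controls against 111 ± 14.4 CPM in the GR-cKO group (SD, 3 libraries each), and the groups did not overlap. Its log2 fold change was 0.46 (95% interval 0.20 to 0.71, SE 0.121), and it did not pass over all genes (edgeR adjusted p = 0.998). Markers of sympathetic neurons summed to 15.8 to 18.2 CPM in the controls and 15.2 to 20.01 CPM in the GR-cKO libraries, with 2 of 4 tested markers higher. Those of parasympathetic neurons summed to 0.524 to 2.11 and 0.592 to 2.499 CPM, with Chat and Chrna3 at 0 reads in all libraries. The part of nerve tissue in the Ddc values was not tested.

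**Figure D5:**
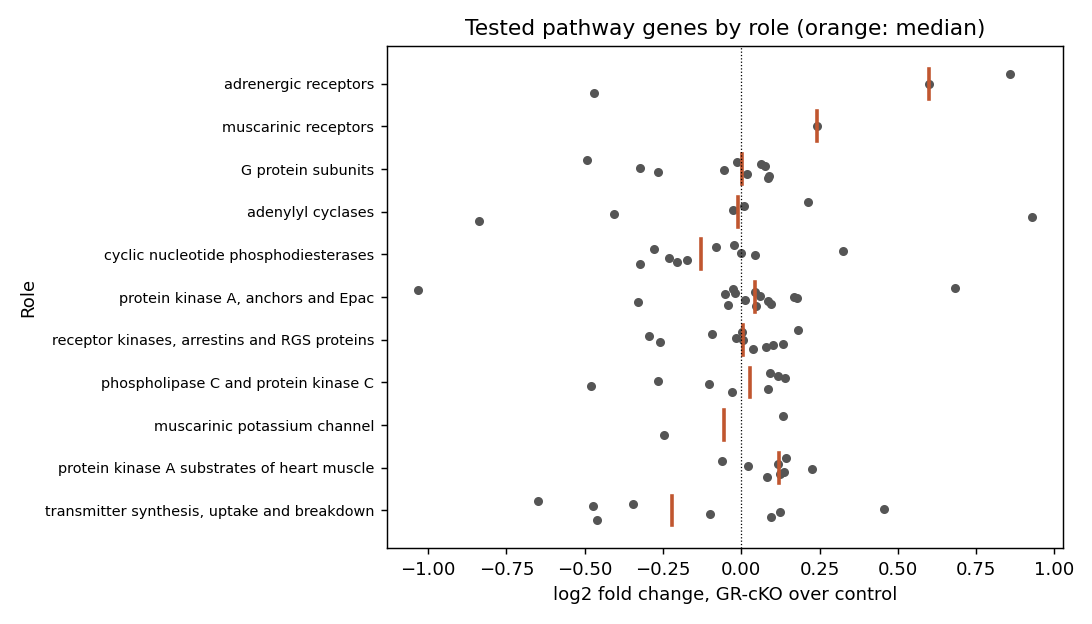
Log2 fold change of GR-cKO over control for the 82 tested genes of the pathway list, by role, with the median of each role in orange. Medians lie near 0 in the roles with 6 or more tested genes apart from a shift to -0.13 for phosphodiesterases, 0.12 for protein kinase A substrates and -0.22 for transmitter genes, and no gene passed the test.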

How the data were processed

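RNA of 6 hearts, 3 in each group, was sequenced. Per the labels' protocols, 100 ng of total RNA went into each library, made with the QuantSeq 3′ FWD kit, which reads the 3′ end of polyadenylated transcripts. The authors deposited raw counts of reads per Ensembl gene, 1 file per library, not normalized. The submitters' processing notes name the build GRCm38, STAR 2.5.4a, featureCounts 1.6.2 and cutadapt 1.16, among other tools. Neither the annotation release nor whether strand was used in counting is given in the sources used here. Without strand, reads where exons of opposite genes overlap cannot be told apart.

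The 99 spike-in rows, 1.63 to 2.01% of reads, entered neither library sizes nor tests. Symbols, positions and exons came from GENCODE M21 and promoter windows from RefSeq (GRCm38.p6), and 52403 of 52550 mouse gene rows matched a symbol. With edgeR 4.0.16 in R 4.3.3, 14860 genes passed filterByExpr, libraries were scaled by TMM, and genotype was tested with the quasi-likelihood F test (robust), with Benjamini-Hochberg adjustment over all tested genes and a threshold of 0.05. The fit was also run on simulated counts, whose outcome is not reported here. CPM are relative to reads of tested genes, scaled by TMM. Log2 CPM used a prior count of 2. Shares were compared with 2-sided exact permutation tests (scipy 1.17.1), with p-values adjusted over 3 shares, of which 1 is not reported here. The edgeR p-values set a genotype difference against the spread between these hearts, with information on spread shared over genes. The permutation p-values place a difference among those of all assignments of the libraries to the groups.

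Alternatives were DESeq2 1.42.0, limma voom 3.58.1, other scalings and filters, the replicate number as a block and each library left out. No library was a copy of another: chi-square values per degree of freedom were 10.1 or more for each pair. The genes and lists were chosen with earlier results of these data known. Named genes were the 8 members, Nr3c1, the most abundant gene and that of smallest p in each role, and the 3 genes most like 9330158H04Rik and Chrm2 over the libraries.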

Additional observations from a re-analysis of the deposited data

How the results depend on the processing

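None of the 7 functional genes and none of the pathway list was called under any of the 14 alternatives, and the same held with the replicate number as a block (replicate block, 0 and 0 called). The count over all genes was 1, and 1 in the fit with the replicate block. It was 2 by library totals alone, 10 with no filter on low counts and 4 with DESeq2, and ran from 1 to 2 with a library left out. The cause was not tested. The replicate numbers gave no clear pairing over all genes. The same-numbered libraries' deviations from their group means correlated at 0.062, 0.0562 and 0.0144. Those of other numbers ran from -0.0893 to 0.0294, and not every library correlated best with its own number. Some summed markers did run in the same order by number in both groups. These were the lists of cardiomyocytes, atrial and ventricular cardiomyocytes and parasympathetic neurons. Those of the other cell types, fibroblasts included, did not. Whether the numbers mark a shared batch was not tested. Dropping each library in turn gave Adra1b log2 fold changes of -0.27 to 0.035, Chrm2 of -0.18 to 0.0018 and Adcy6 of -0.042 to 0.19. The signs turned without GR-cKO replicate 2 for Adra1b and Chrm2 and without GR-cKO replicate 3 for Adcy6. The Adcy5 share ran from -0.761 to 3.49 percentage points with a library left out, and was -0.01 without GR-cKO replicate 1. Paired by replicate number (replicate block) the shares of Adcy5, Adra1a and 9330158H04Rik differed by 0.905, 0.435 and 14.2 points. The log2 fold change of 9330158H04Rik was 0.67 to 1.03 under the 14 alternatives. These reuse the libraries in which the gene was picked as higher, so nothing is read from its unchanged sign. Depth limits Adra1a, with 6 to 45 reads per library.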
